A study of Homo sapiens with 8 samples.

Results

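The 37 genes of the human mitochondrial genome were followed through spheres of 4 established non-small cell lung cancer lines. They were taken as every gene whose name starts with MT- in the deposited gene counts, and they are 37 of the 60106 genes listed, with 13 protein genes, 2 ribosomal RNA (rRNA) genes and 22 transfer RNA (tRNA) genes. All 37 passed the filter on low counts that kept 24185 genes. The libraries hold total RNA of pneumospheres, floating spheres of tumour cells grown without serum on flasks to which cells do not attach. H23, H820 and H1975 are labelled adenocarcinoma. EBC1 is the one line of another histology, squamous cell carcinoma. Each line has 2 libraries. The first is untreated, and the second comes from spheres stimulated for 15 min with 25 µg/ml of PD-L1s, the synthetic soluble variant of an immune checkpoint protein. This gives 8 libraries, with 4 untreated and 4 treated. All were grown with fibroblast and epithelial growth factors and B-27 supplement. The labels do not say whether the 2 libraries of a line came from separate cultures, so p-values here measure only the spread between these libraries.

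The mitochondrial genome is a small circle that is transcribed from both strands as long precursors. The precursors are cut, largely at the tRNAs that lie between the other genes, into separate RNAs. Its protein genes encode core subunits of the respiratory chain (complex I, complex III and complex IV) and of the ATP synthase (complex V), and its rRNAs and tRNAs serve the ribosome inside the organelle that translates them. All other subunits are encoded in the nucleus and imported.

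On the deposited GRCh37 (hg19) coordinates, 28 genes lay on the strand of MT-ND1 and 9 on that of MT-ND6, which are MT-ND6 and 8 tRNAs. The sequences of all 37 were matched by gene identifier in the GENCODE transcripts, with the same lengths. Of the 28 genes on the strand of MT-ND1, 27 held more C than G in the RNA sense, whereas all 9 genes on the other strand held more G than C. MT-ATP8 (chrM:8366-8572, plus strand) and MT-ATP6 overlap by 46 bases and MT-ND4L and MT-ND4 by 7. Read pairs on such an overlap were counted for both genes, so the values of each pair of genes are not independent. MT-ATP6 and MT-CO3, and MT-TC and MT-TY, share 1 base each, and a pair that spans any 2 neighbours of a strand was likewise counted for both. The sequences of the 2 longest overlaps are shown because they are where protein genes share most bases, with those bases in capitals. MT-ATP6 is shown from chrM:8527-8586, the end of MT-ND4L from chrM:10727-10766 and the start of MT-ND4 from chrM:10760-10799, all on the plus strand.
MT-ATP8: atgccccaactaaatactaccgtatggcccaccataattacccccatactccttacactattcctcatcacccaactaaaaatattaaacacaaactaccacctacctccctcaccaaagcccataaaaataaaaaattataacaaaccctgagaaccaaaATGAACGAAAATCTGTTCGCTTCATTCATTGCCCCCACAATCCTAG
MT-ATP6 start: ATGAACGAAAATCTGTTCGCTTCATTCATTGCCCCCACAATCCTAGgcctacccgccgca
MT-ND4L end: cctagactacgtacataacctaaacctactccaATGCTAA
MT-ND4 start: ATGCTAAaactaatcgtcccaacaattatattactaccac

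The tRNAs on which the differences between lines turn are shown next, with the anticodon in capitals. MT-TS1 (serine; chrM:7446-7514, minus strand) and MT-TD (aspartate; chrM:7518-7585, plus strand) are neighbours on opposite strands between MT-CO1 and MT-CO2. MT-TM (methionine; chrM:4402-4469, plus strand) lies before MT-ND2. MT-TH (histidine; chrM:12138-12206, plus strand), MT-TS2 (serine) and MT-TL2 (leucine; chrM:12266-12336, plus strand) stand in a row between MT-ND4 and MT-ND5. A tRNA gene is shorter than a usual RNA-seq fragment, so its count comes from read pairs that overlap it, and pairs that also reach a neighbour on the same strand were counted there too. These counts can include unprocessed precursors and are no measure of mature tRNA.
MT-TS1: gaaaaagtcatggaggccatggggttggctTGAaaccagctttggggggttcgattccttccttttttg
MT-TD: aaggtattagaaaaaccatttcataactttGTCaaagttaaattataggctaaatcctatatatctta
MT-TM: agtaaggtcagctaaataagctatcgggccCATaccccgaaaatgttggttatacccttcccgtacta
MT-TH: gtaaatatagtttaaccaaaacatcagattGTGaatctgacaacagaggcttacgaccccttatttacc
MT-TL2: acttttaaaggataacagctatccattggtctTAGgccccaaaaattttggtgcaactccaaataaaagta

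Library totals ran from 5559870 to 27524854 counts. The treated library was 4.67 times as deep as the untreated one in EBC1 and 4.28 times in H820, against 0.766 times in H23 and 0.936 times in H1975, so in EBC1 and H820 depth and treatment cannot be told apart. The 20 annotated nuclear copies of mitochondrial genes summed to 10 to 61 counts per library, and 6 of them were at 0 in all 8 libraries. Of 12 markers of immune cells, endothelium and fibroblasts, 11 were in the files, 6 passed the filter and 1 was at 0 everywhere. Their summed level was 43.7 to 44.5 CPM (counts per 1000000, scaled by TMM, edgeR's trimmed mean of M-values) in H23 and 124.8 to 186 CPM in the other lines. The most abundant was COL1A1, a collagen gene, in H23, and CD68, a lysosomal protein that tumour cells also make, in the other lines. In H23, COL1A1 had 35.3 and 32.8 CPM (untreated and treated) and CD68 4.54 and 6.08. In untreated H820, COL1A1 had 57.2 CPM and CD68 65.9.

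Together the 37 genes took from 0.972% of the counts in treated EBC1 to 4.07% in untreated H820. Protein genes gave 87.0% to 95.9% of these counts, rRNA genes 3.32% to 11.3% and tRNA genes 0.657% to 1.98%. The rRNA share follows a library kit that removes ribosomal RNA, per the labels' protocols, so the rRNA levels are what that step left. The 9 genes on the strand of MT-ND6 gave 0.714% to 1.61% of the counts of the 37. In bulk RNA, fewer mitochondria-rich cells and less mitochondrial RNA per cell cannot be told apart.

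Levels along the genome differed by over 2 orders of magnitude. In CPM per kilobase, as mean and SD over the 8 libraries of all lines, the genes of complex IV (cytochrome c oxidase) were highest, with 4465 ± 1386 for MT-CO2, 4417 ± 1645 for MT-CO1 and 4098 ± 3146 for MT-CO3. Their ranges of mean and SD overlapped, but the SD includes differences between lines, and these 3 were not tested against each other. In H1975 MT-CO1 lay above MT-CO3, at 5846 and 5723 (untreated and treated) against 3071 and 3029. It did so in EBC1 as well, at 3855 and 2987 against 2223 and 1393. In H820 MT-CO1 lay below MT-CO3, at 6763 and 5016 against 9083 and 9164. In H23 the values were closer, at 2278 and 2869 against 2253 and 2568. By mean, MT-ND4 followed at 1991 ± 745. MT-ATP6 (1011 ± 502), MT-ATP8 (975 ± 522) and MT-CYB (904 ± 378) formed the next, overlapping, group. The lowest protein gene was MT-ND6, the only one on its strand, at 318 CPM per kilobase. Among tRNA genes MT-TL1, which lies between MT-RNR2 and MT-ND1, was highest at 597 ± 302, followed by MT-TK at 436 ± 151 and MT-TE at 417 ± 215. The lowest tRNA genes were MT-TN at 18.0 ± 13.3, MT-TV at 18.3 ± 20.3 and MT-TC at 21.3 ± 12.2. The median gene on the strand of MT-ND1 was at 170.5 CPM per kilobase for tRNAs and on the other strand at 40.98.

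**Figure D1:**
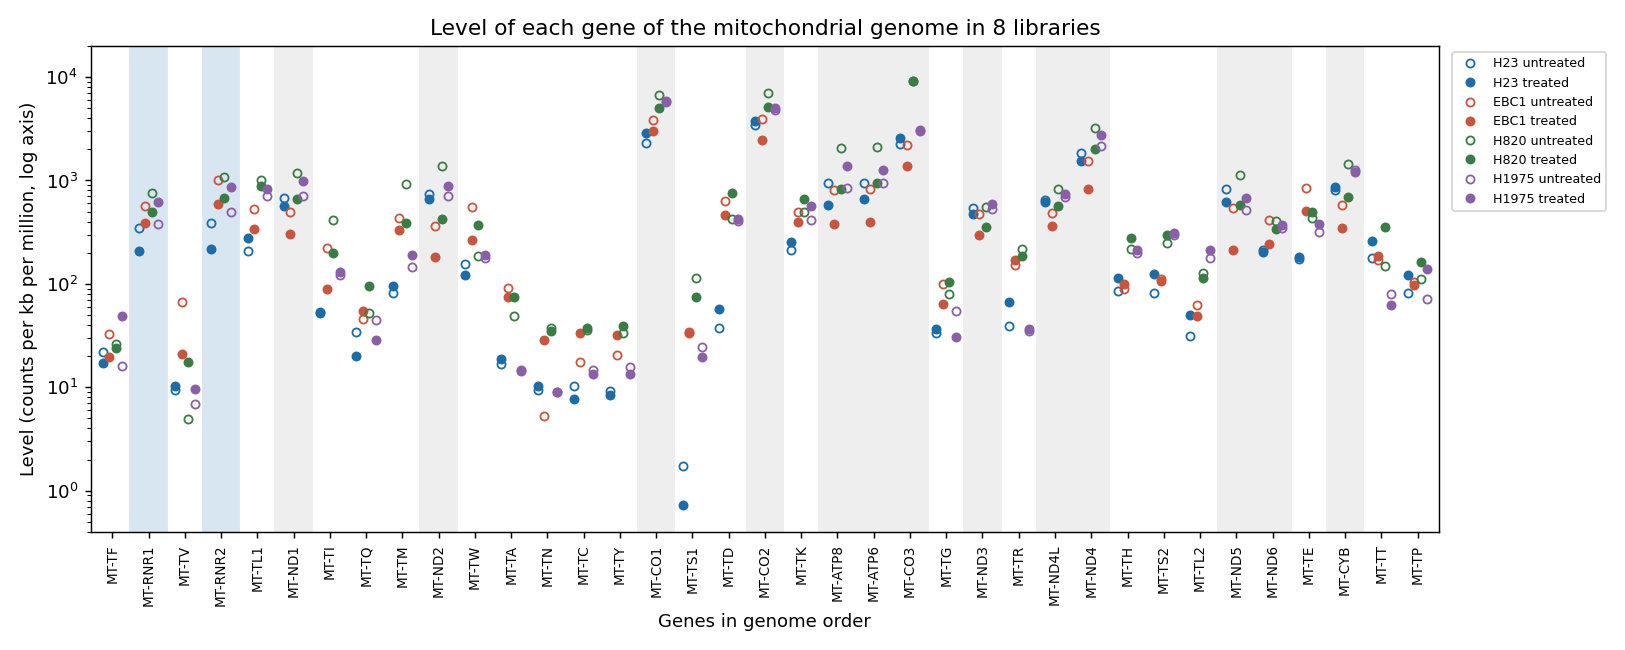
Level of each of the 37 genes in CPM per kilobase (log axis) in genome order, with open points for untreated and filled points for treated libraries and 1 colour per line; grey bands mark protein genes and blue bands rRNA genes. MT-CO1, MT-CO2 and MT-CO3 stand highest, and MT-TS1 in H23 lies far below the other lines, from 3 and 1 counts.

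Composition within the 13 protein genes differed between libraries (in percent of their summed counts, not per length). Complex IV genes made up 49.7% and 58.1% in H23 (untreated and treated) and 63.8% and 70.5% in EBC1. They made up 64.3% and 59.5% in H1975 and 62.9% and 72.6% in H820. The 7 complex I genes made up 38.9% and 31.8% in H23 and 27.6% and 22.4% in EBC1. In H1975 they made up 25.8% and 30.2%, and in H820 27.3% and 21.1%. Both H23 libraries lay apart from all others for both complexes, whereas EBC1, H820 and H1975 overlapped. MT-CO3 took 20.03% in untreated and 28.2% in treated H820, and 9.63% to 12.99% in the other 6 libraries. MT-ND5, the largest complex I gene here, took 9.83% and 7.27% in H23 and 3.65% to 6.01% elsewhere. MT-CO2 was the steadiest, at 13.5% to 16.5%.

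**Figure D2:**
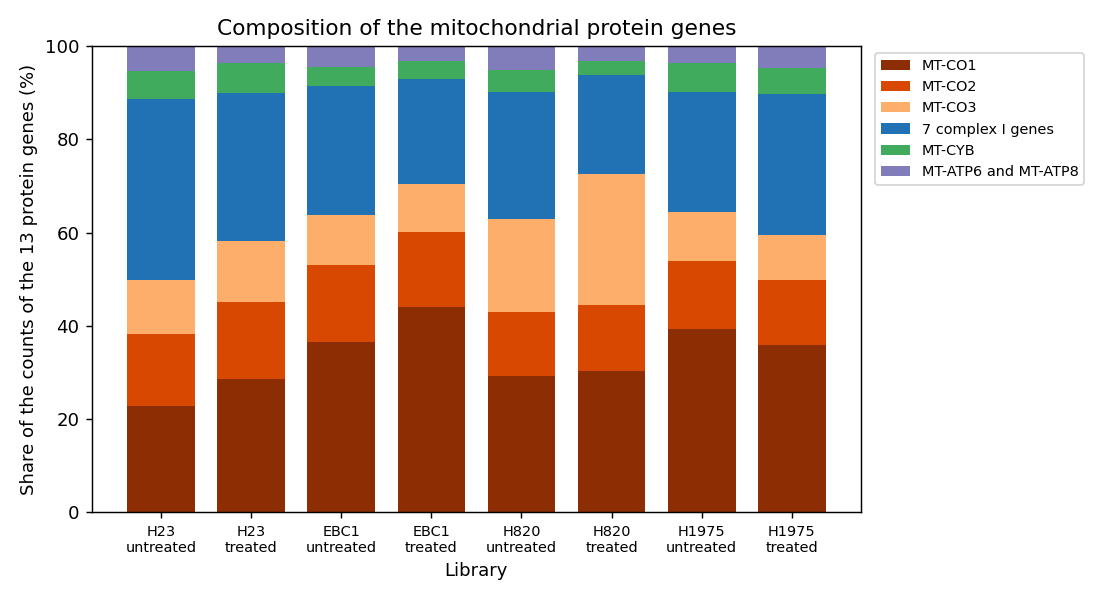
Share of each gene or gene group in the summed counts of the 13 protein genes (%), stacked to 100% for each of the 8 libraries. The MT-CO3 segment is widest in the 2 H820 libraries (20.03% and 28.2%), and the complex I segment is widest in untreated H23 (38.9%).

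Each line was then set against the mean of the other 3 in an edgeR quasi-likelihood fit over all 24185 genes, which asks in which line each gene stood apart. The 4 contrasts share libraries and are given side by side, and members cut from common precursors are not independent of each other. In H820, 29 of the 37 genes (78.4%) were called higher and 0 lower, against 30.6% of all genes called higher, 22.9% called lower and 53.5% called in either direction. In H23, 22 of the 37 genes (59.5%) were called lower and 1 higher, against 27.4% and 34.4% of all genes and 61.8% in either direction, so the number of calls was near the background and the split by direction was not. In EBC1, 15 were called lower (40.5%) and 8 higher (21.6%), against 26.4% and 28.1% of all genes and 54.4% in either direction. In H1975, 12 were called higher (32.4%) and 5 lower (13.5%), which is near the background of 31% and below that of 22.6%, with 53.6% of all genes called in either direction. With scaling by library size alone the median of all genes moved by 0.44 in H23 and fell by 0.32 in EBC1 on the log2 scale, and in the other contrasts by less than 0.1. Over all genes the split of calls in H23 was then 12171 higher and 4300 lower, against 8322 and 6618 with TMM, and in EBC1 4779 and 8923, against 6791 and 6376. Of the members, H23 had 6 called higher with that scaling, 5 of them protein genes, and 18 lower, and EBC1 7 higher and 16 lower.

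**Figure D3:**
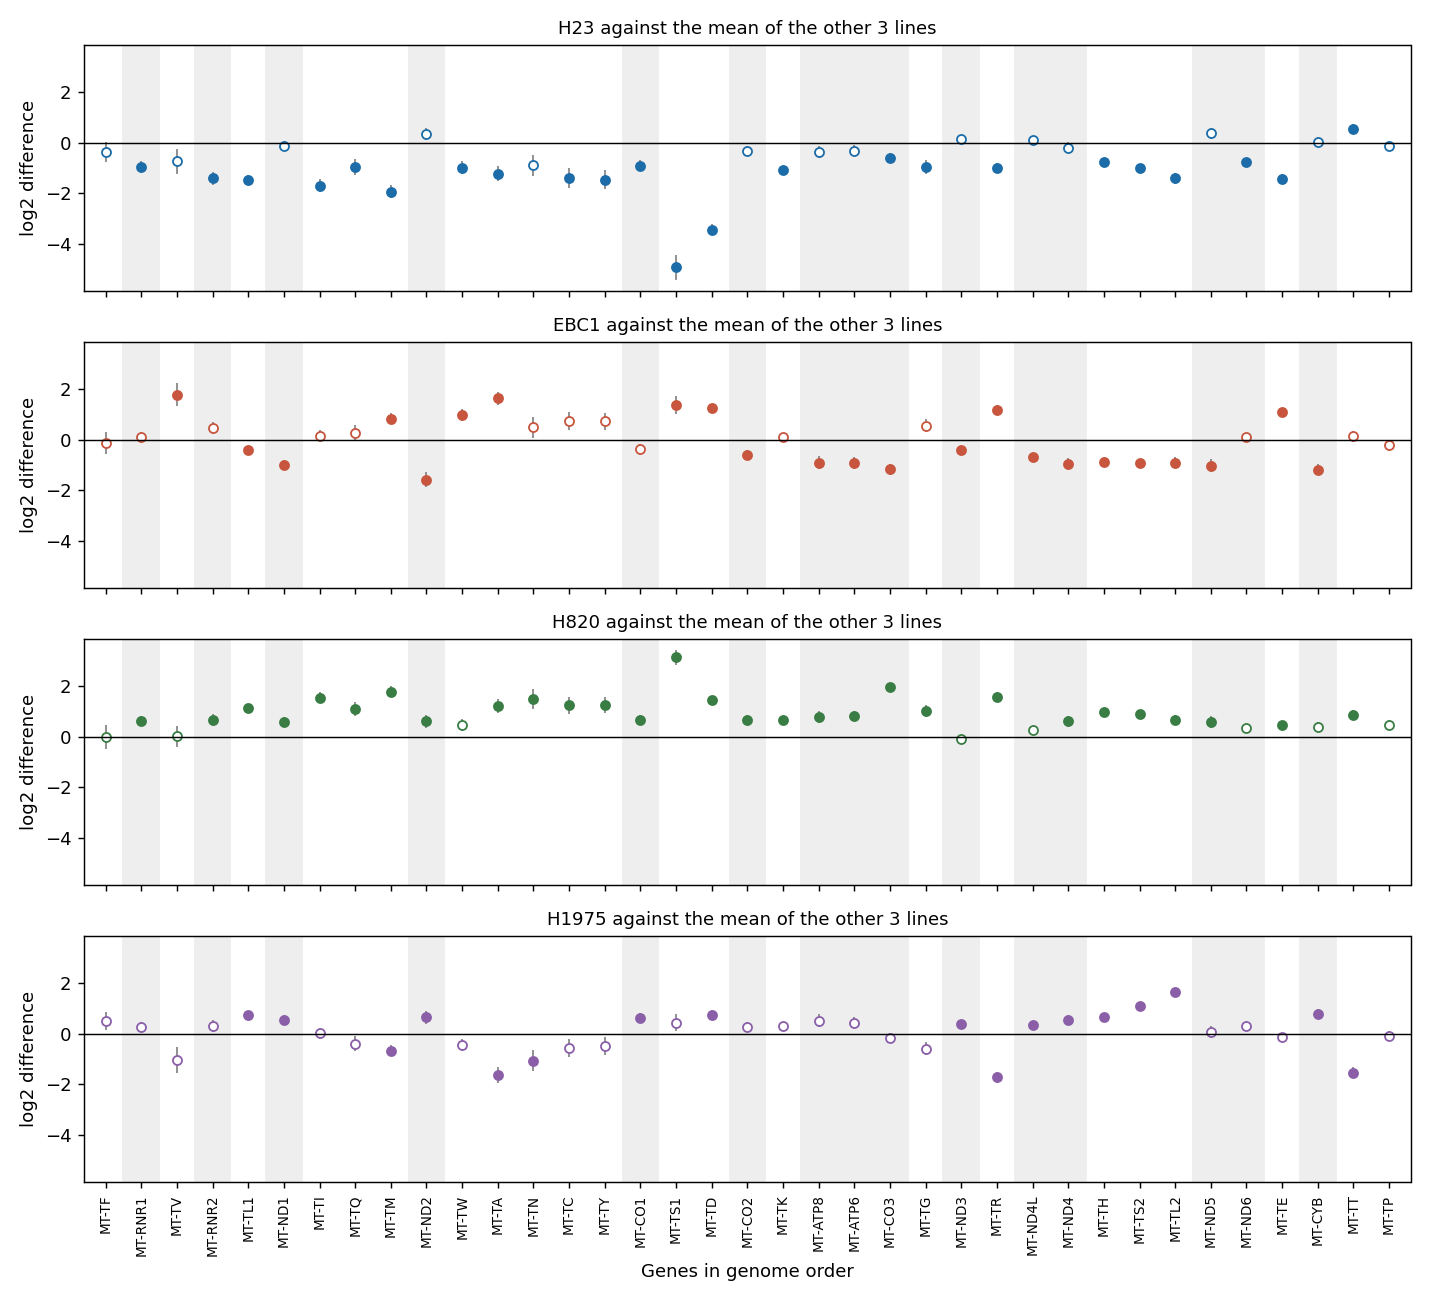
log2 difference of each line from the mean of the other 3 (edgeR, points; bars are standard errors) for the 37 genes in genome order, with filled points for an adjusted p under 0.05 and grey bands for protein and rRNA genes. The H820 panel lies almost wholly above 0, the tRNA genes of H23 lie mostly below 0, and in EBC1 all called protein genes lie below 0 and 8 tRNA genes above.

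Complex IV, which passes electrons to oxygen, gave the member that stood out most among protein genes. MT-CO3, another core subunit, had 7121 CPM (untreated) and 7184 CPM (treated) in H820, against 1766 and 2013 in H23, 1743 and 1092 in EBC1 and 2408 and 2375 in H1975. Both H820 libraries lay above all 6 others. The difference in H820 was 3.86-fold (log2 1.95 ± 0.174 SE; edgeR, adjusted p = 2.48e-08). Its upstream neighbour MT-ATP6 was 1.76-fold higher there (log2 0.81 ± 0.212; edgeR, adjusted p = 0.00332), and the difference between these genes was not tested. In EBC1 MT-CO3 was 2.27-fold lower (log2 -1.18 ± 0.205; edgeR, adjusted p = 8.08e-05), where the mean of the other lines includes the high H820 values. Both EBC1 values lay below all others, but untreated EBC1 (1743 CPM) only just below untreated H23 (1766 CPM). MT-CO1, the catalytic subunit, had 3513 and 4424 CPM in H23, 5945 and 4606 in EBC1, 9014 and 8825 in H1975 and 10428 and 7735 in H820, in the order untreated and treated that is kept below. Its H23 values lay below all others, 1.88-fold lower than the rest (log2 -0.91 ± 0.214; edgeR, adjusted p = 0.00119). MT-CO2, which receives the electrons from cytochrome c, had 2372 and 2566 CPM in H23, 2683 and 1683 in EBC1, 3296 and 3471 in H1975 and 4811 and 3550.4 in H820.

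Complex V had 2 overlapping members. MT-ATP6, the membrane subunit on the proton path, had 639 and 453 CPM in H23, 565 and 268 in EBC1, 650.5 and 868 in H1975 and 1419 and 643 in H820. MT-ATP8 had 195 and 121 CPM in H23, 167 and 78.6 in EBC1, 173 and 283 in H1975 and 427 and 171 in H820. Both were called lower in EBC1 and higher in H820, and untreated H820 was highest for both. Treated H820 lay below both H1975 libraries for both genes. MT-ATP6 was 1.89-fold lower in EBC1 (log2 -0.92 ± 0.234; edgeR, adjusted p = 0.0027). It was not called in H23 (log2 -0.32 ± 0.224; edgeR, adjusted p = 0.224) or in H1975 (log2 0.43 ± 0.219; edgeR, adjusted p = 0.109). Complex III has a single member, MT-CYB, its cytochrome b, with 922 and 991 CPM in H23, 663 and 395 in EBC1, 1434 and 1393 in H1975 and 1659 and 792 in H820. MT-CYB was 2.29-fold lower in EBC1 (log2 -1.19 ± 0.213; edgeR, adjusted p = 0.000111) and 1.70-fold higher in H1975 (log2 0.77 ± 0.190; edgeR, adjusted p = 0.00218).

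Complex I, which takes electrons from NADH, has 7 members that build its membrane arm. MT-ND2 had 766 and 688 CPM in H23, 381 and 191 in EBC1, 729.8 and 919 in H1975 and 1424 and 443 in H820. EBC1 held the 2 lowest values, and MT-ND2 was 2.997-fold lower there (log2 -1.58 ± 0.281; edgeR, adjusted p = 0.000104). MT-ND2 was called higher in H1975 (log2 0.64 ± 0.249; edgeR, adjusted p = 0.0367), a call lost with DESeq2 (adjusted p = 0.327). In H23 it was not called (log2 0.33 ± 0.249; edgeR, adjusted p = 0.259). MT-ND5 had 1513 and 1127 CPM in H23, 977 and 382 in EBC1, 935 and 1216 in H1975 and 2035 and 1038 in H820. Only treated EBC1 lay apart from the rest. MT-ND5 was called higher in H820 (log2 0.59 ± 0.224; edgeR, adjusted p = 0.0350), a call lost with DESeq2 (adjusted p = 0.252). It was not called in H1975 (log2 0.08 ± 0.233; edgeR, adjusted p = 0.819). MT-ND5 was 2.05-fold lower in EBC1 (log2 -1.03 ± 0.248; edgeR, adjusted p = 0.00172), and its H23 difference did not pass (log2 0.37 ± 0.226; edgeR, adjusted p = 0.170). That H23 difference was called higher with scaling by library size alone (log2 0.80; edgeR, adjusted p = 0.00046) and without untreated EBC1, untreated H820 or treated H1975 (edgeR, adjusted p = 0.0361, 0.00281 and 0.0083). MT-ND1 had 646 and 539 CPM in H23, 473 and 292 in EBC1, 679.9 and 938 in H1975 and 1122 and 629 in H820. MT-ND4 had 2565 and 2127 CPM in H23, 2121 and 1146 in EBC1, 2992 and 3753 in H1975 and 4460.5 and 2787 in H820. MT-ND4L, which shares its last bases with MT-ND4, had 192 and 185 CPM in H23, 143 and 108 in EBC1, 206 and 222 in H1975 and 245 and 167 in H820. All 3 were called lower in EBC1, and MT-ND1 and MT-ND4 were called higher in H820 and in H1975. MT-ND3 was the one protein gene below 0 in H820 (log2 -0.11 ± 0.156), with 188 and 163 CPM in H23, 164 and 103 in EBC1, 183 and 206 in H1975 and 190.0 and 122 in H820. MT-ND6, the only protein gene on the other strand, had 112 and 106 CPM in H23, 220.0 and 128 in EBC1, 181 and 196 in H1975 and 214 and 178 in H820. Both H23 values lay below all others (log2 -0.76 ± 0.158; edgeR, adjusted p = 0.000422), whereas the EBC1 difference, at log2 0.09 ± 0.152, was not called.

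Several protein calls rested on single libraries. In EBC1, 11 of the 13 protein genes were called lower, at a median log2 of -0.92. Without the treated EBC1 library, the deepest of the 8, that median was -0.61. In H820, 9 of the 13 were called higher (median log2 0.60). The H820 median was 0.46 without treated EBC1 and 0.40 without untreated H1975. In H1975, 7 of the 13 were called higher (median log2 0.43), and the median was 0.04 without its treated library. In each of these fits with a library left out, fewer of all genes were called too. MT-ND2 in H820 (log2 0.61 ± 0.251; edgeR, adjusted p = 0.0496) stood at log2 -0.18 without the untreated H820 library. MT-ND5 and MT-ATP6 lost their EBC1 calls without treated EBC1 (edgeR, adjusted p = 0.202 and 0.196). MT-CO1 lost its H23 call without untreated H23 (edgeR, adjusted p = 0.0953) and MT-CYB its H1975 call without treated H1975 (edgeR, adjusted p = 0.153). MT-ATP6 in H820 was not called by DESeq2 (adjusted p = 0.0975). MT-CO3 in H820 kept its call under each alternative run.

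The rRNAs of the small and large mitochondrial ribosomal subunit were lowest in H23. MT-RNR2 had 601 and 339 CPM in H23, 1564 and 915 in EBC1, 775 and 1337 in H1975 and 1698 and 1046 in H820. MT-RNR1 had 329.8 and 198 CPM in H23, 543 and 367 in EBC1, 359 and 593 in H1975 and 723 and 469 in H820. Both H23 values were below all others for both genes. MT-RNR2 was 2.66-fold lower in H23 (log2 -1.41 ± 0.256; edgeR, adjusted p = 0.000108) and MT-RNR1 1.95-fold lower (log2 -0.97 ± 0.223; edgeR, adjusted p = 0.00103). In H820 both were called higher, at 1.58-fold for MT-RNR2 and 1.52-fold for MT-RNR1. These H820 calls were lost with DESeq2 (adjusted p = 0.221 for MT-RNR2 and 0.0519 for MT-RNR1) and without treated EBC1 (edgeR, adjusted p = 0.113 and 0.101).

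The tRNA genes gave both the lowest and the highest difference of the 37 genes in these contrasts. In H23, 17 of 22 were called lower and 1, MT-TT, higher (log2 0.56 ± 0.199; edgeR, adjusted p = 0.0212), a call lost without treated H23 (edgeR, adjusted p = 0.1403). MT-TS1, shown above, had 3 and 1 counts in H23, 12 and 53 in EBC1, 39 and 29 in H1975 and 46 and 110 in H820. No H23 value reached any other. Over the summed counts, 4 in H23 against 289 in the other 6 libraries, its rate was 32.7-fold lower (95% exact interval 12.6 to 121-fold, which covers counting error only). In the line contrast MT-TS1 had log2 -4.94 ± 0.489 in H23 (edgeR, adjusted p = 7.17e-08). Its neighbour MT-TD, on the opposite strand, had 63 and 78 counts in H23, 222 and 700 in EBC1, 638 and 608 in H1975 and 172 and 1112 in H820. In CPM these were 2.53 and 3.92 in H23 and 27.9 to 51.7 elsewhere, 10.9-fold lower in H23 (log2 -3.45 ± 0.235; edgeR, adjusted p = 3.89e-10). MT-CO2, which follows MT-TD on the same strand, was not called in H23 (log2 -0.33 ± 0.194).

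In H820, 18 of the 22 tRNA genes were called higher and 0 lower. MT-TS1 was highest there, at 7.79 and 5.11 CPM against at most 2.38 elsewhere (edgeR, adjusted p = 5.09e-08), and no fold is given because the mean of the other lines includes the 4 counts of H23. MT-TD was 2.73-fold higher (log2 1.45 ± 0.178; edgeR, adjusted p = 1.60e-06), but its untreated H820 value of 29.1 CPM lay below both EBC1 values (42.7 and 31.4). MT-TD was also called higher in EBC1 and in H1975, where it had 27.9 and 28.7 CPM, and in each of these contrasts the mean of the other lines includes the low H23 values. MT-TM had 62.3 and 26.4 CPM in H820, 29.2 and 22.4 in EBC1, 5.54 and 6.44 in H23 and 9.95 and 13.01 in H1975. It was 3.45-fold higher in H820 (log2 1.79 ± 0.206; edgeR, adjusted p = 7.14e-07), with treated H820 within the range of EBC1.

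MT-TH, MT-TS2 and MT-TL2, the row between MT-ND4 and MT-ND5, were low in H23 and EBC1 and high in H820 and H1975. MT-TL2 had 12.7 and 15.2 CPM in H1975, 8.98 and 8.13 in H820, 4.42 and 3.45 in EBC1 and 2.21 and 3.52 in H23. The H1975 values lay above all others, 3.14-fold higher (log2 1.65 ± 0.178; edgeR, adjusted p = 2.82e-07). MT-TS2 was 2.12-fold higher in H1975 (log2 1.09 ± 0.149; edgeR, adjusted p = 6.02e-06) and MT-TH 1.57-fold (log2 0.65 ± 0.146; edgeR, adjusted p = 0.000996), a call that MT-TH lost without untreated H1975 (edgeR, adjusted p = 0.0769). In EBC1 all 3 were called lower, by 1.88-fold for MT-TL2, 1.93-fold for MT-TS2 and 1.84-fold for MT-TH, and without treated EBC1 MT-TL2 and MT-TS2 were not called (edgeR, adjusted p = 0.318 and 0.0639). Other tRNA genes had the opposite calls in H1975 or in EBC1, although MT-TR, MT-TA, MT-TT and MT-TE were called higher in H820 too. MT-TR (arginine) was 3.33-fold lower in H1975 (log2 -1.73 ± 0.227; edgeR, adjusted p = 3.43e-06), at 2.27 and 2.36 CPM against 14.1 and 12.2 in H820, 9.99 and 11.2 in EBC1 and 2.53 and 4.37 in H23. MT-TA (alanine) was 3.10-fold lower in H1975 and 3.13-fold higher in EBC1. MT-TT (threonine) was 2.91-fold lower in H1975. MT-TE (glutamate), which is cut from the same strand as MT-ND6, was 2.15-fold higher in EBC1 (log2 1.10 ± 0.159; edgeR, adjusted p = 1.04e-05). In EBC1 8 tRNA genes were called higher and 4 lower, while 0 protein genes were called higher.

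Nuclear noncoding RNAs are given beside the tRNA genes. Of a list of 7 symbols with 8 tested entries (1 symbol has several genes), which holds the long RNA NEAT1, RMRP and RNAs of the signal recognition particle, 6 were called lower in H23 and 0 higher, and their summed level was 61631 and 77392 CPM in H23 against 117955 to 155478 CPM elsewhere. Without treated H23, 3 were called lower there. In EBC1 5 of the 8 were called higher and 0 lower, but 1 without treated EBC1, 2 without treated H23 or either H1975 library, and 3 without untreated EBC1. In H820 1 was called higher and 1 lower, where 18 of the 22 tRNA genes were called higher, and in H1975 2 were called higher and 0 lower. Of all genes, 34.4% were called higher and 27.4% lower in H23, and 28.1% and 26.4% in EBC1. These shares were 30.6% and 22.9% in H820 and 31% and 22.6% in H1975. In each fit named here with a library left out, fewer of all genes were called in the same direction too. The part of these noncoding RNAs in the tRNA and rRNA results was not tested.

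The nuclear partners in complexes I, IV and V had other calls than the mitochondrial genes in H820. Among the nuclear subunits of complex IV, 0 of 11 were called higher and 8 lower there (median log2 -0.62), while 3 of 3 mitochondrial subunits were called higher. COX4I1, a regulatory subunit, had 48.3 and 69.4 CPM in H820 and 74.7 to 186 elsewhere, 2.02-fold lower (log2 -1.02 ± 0.149; edgeR, adjusted p = 1.35e-05). For complex V, 0 of 15 nuclear subunits were called higher and 8 lower (median log2 -0.39), against 2 of 2 mitochondrial genes higher. ATP5E, the epsilon subunit of the catalytic part, had 34.7 and 47.3 CPM in H820 and 72.1 to 226 elsewhere, 2.90-fold lower (log2 -1.53 ± 0.146; edgeR, adjusted p = 5.73e-08). For complex I, 5 of 37 nuclear subunits were called higher and 18 lower (median log2 -0.31), and 4 of 7 mitochondrial genes were higher. Complex III showed no such split. Of its 9 nuclear subunits 2 were called higher and 4 lower (median log2 -0.0035), and MT-CYB was not called (log2 0.39 ± 0.195; edgeR, adjusted p = 0.0991). These shares stand against 30.6% of all genes higher and 22.9% lower, and the difference between the gene groups was not tested. DESeq2 called 5 of the 13 mitochondrial protein genes higher in H820, against 9 with edgeR. Of all 24185 genes it called 6703 higher there, against 7393 with edgeR. Without the untreated H820 library, the complex I median was log2 -0.08 with 7 genes higher and 17 lower, and complexes IV and V each had 2 nuclear genes higher and 7 lower.

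In EBC1 the mitochondrial genes had calls in the other direction. Among nuclear subunits of complex IV 6 of 11 were called higher and 2 lower, of complex V 6 of 15 higher and 2 lower, and of complex I 14 of 37 higher and 9 lower, against 28.1% of all genes higher and 26.4% lower. The share of complex I genes called lower was near that background, and without treated EBC1 9 were called higher and 9 lower. The mitochondrial genes of complex IV, complex V and complex I were called lower in 2 of 3, 2 of 2 and 6 of 7. Over the 13 mitochondrial protein genes the EBC1 median was log2 -0.92, and -0.61 without treated EBC1. DESeq2 called 8 of these 13 lower in EBC1, against 11 with edgeR. Of all 24185 genes it called 6116 lower there, against 6376 with edgeR. COX4I1 was 2.25-fold higher in EBC1 (log2 1.17 ± 0.131; edgeR, adjusted p = 4.64e-07). With scaling by library size alone the nuclear medians of complexes I and V in EBC1 turned to log2 -0.22 and -0.18, so their direction depends on the scaling.

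**Figure D4:**
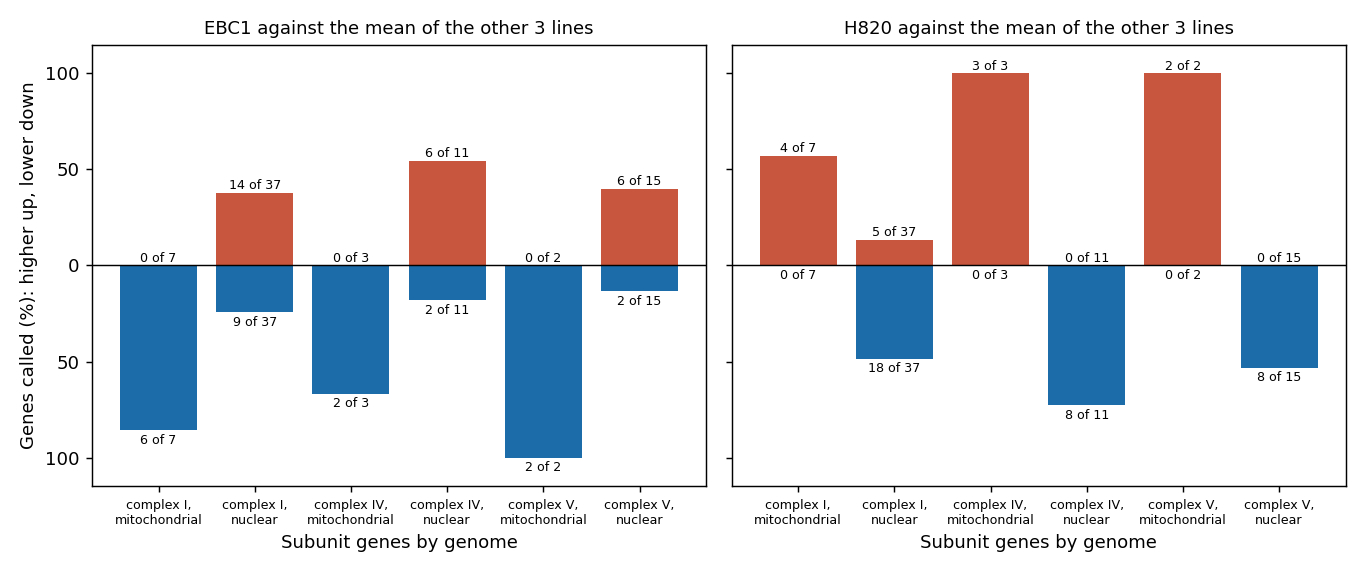
Share of subunit genes of complexes I, IV and V called higher (bars up) or lower (bars down) in EBC1 and in H820 against the mean of the other 3 lines (%), by complex and by the genome that encodes them, with the counts printed. Complex III is not shown. In H820 mitochondrial genes were called higher only and nuclear genes of complexes IV and V lower only; in EBC1 mitochondrial genes were called lower only.

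Of the machinery that makes and reads mitochondrial RNA, 28 of 77 genes of the mitochondrial ribosome were called higher and 13 lower in EBC1 (median log2 0.22), and 13 higher and 29 lower in H820. With scaling by library size alone EBC1 had 16 higher and 24 lower (median log2 -0.10), so the direction there depends on the scaling, and without treated EBC1 it had 17 higher and 11 lower. POLRMT, the mitochondrial RNA polymerase, was 1.88-fold lower in H820 (log2 -0.91 ± 0.141; edgeR, adjusted p = 2.29e-05), at 27.8 and 30.6 CPM against 42.3 to 99.1 elsewhere, and 2.18-fold higher in EBC1. Of the 9 genes of mitochondrial transcription listed, POLRMT among them, 4 were called higher and 1 lower in EBC1, and 2 each way in H820. These counts and the next are to be read against the shares of all genes called higher and lower, which were 34.4% and 27.4% in H23, 30.6% and 22.9% in H820 and 28.1% and 26.4% in EBC1. Among 11 genes of mitochondrial DNA replication, 7 were called higher and 1 lower in H23, and 1 higher and 5 lower in EBC1. Of 17 mitochondrial tRNA synthetases, 9 were called higher and 1 lower in H23, where the tRNA genes were low. Of 22 genes of mitochondrial RNA processing, 10 were called higher and 6 lower in H23, the latter near the background. LRPPRC, which stabilises mitochondrial messenger RNAs, was 2.02-fold higher there (log2 1.02 ± 0.123; edgeR, adjusted p = 9.76e-07). PPARGC1A, the coactivator PGC-1alpha of mitochondrial biogenesis, had 7.47 and 7.09 CPM in H23 and at most 0.0929 CPM in the other 6 libraries. ESRRA, a nuclear receptor that works with it, was 3.79-fold lower in H23 (log2 -1.92 ± 0.187; edgeR, adjusted p = 5.37e-08). The counts of the transcription, replication, synthetase and RNA processing lists were not recomputed under other scalings.

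The treatment comparison asks what differed 15 min after PD-L1s was added, with each line as its own control (n = 4 lines). 0 of the 37 genes were called in either direction (edgeR, all adjusted p = 0.9995), against 0.0372% of all genes (0.0289% higher and 0.00827% lower), and 9 members had an unadjusted p under 0.05 (against 3.61% of all genes). All 13 protein genes had a log2 change below 0 (median -0.33), where the median of all genes was 0.04 and 40.1% of them lay below 0. The lowest were MT-ND2 (log2 -0.62 ± 0.227), MT-ATP8 (-0.61 ± 0.221), MT-ND5 (-0.60 ± 0.205) and MT-ATP6 (-0.58 ± 0.195). DESeq2 also called 0 of the 37, with 5 at an unadjusted p under 0.05. The result rested on the filter and on which lines entered. With no filter, MT-ND2 and MT-ATP8 were called lower (edgeR, adjusted p = 0.0335 and 0.0362). Of all 42160 genes then tested, 14 were called lower and 84 higher, against 2 and 7 of 24185 in the main fit. Without H1975, MT-ATP8 (log2 -1.06; edgeR, adjusted p = 0.00137) and MT-ATP6 (log2 -0.93; edgeR, adjusted p = 0.0219) were called lower. In that fit 8 of all 22491 genes tested were called lower and 11 higher. In H23 and H1975 alone, the lines of even depth, the protein median was log2 0.03 and 3 of the 13 lay below 0.

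Within lines there was 1 library per condition, so the ratios below have no replicate check. Among the 13 protein genes, 9 were lower in the treated library of H23, EBC1 and H820 and higher in that of H1975, as were both rRNAs. The exceptions were MT-CO1, MT-CO2, MT-CO3 and MT-CYB. The 7 complex I genes were below 0 in all of H23, EBC1 and H820 and above 0 in H1975, with median log2 ratios of -0.21, -0.78, -0.68 and 0.33. MT-ND2 had the lowest ratio in H820, 3.21-fold lower, and MT-ND5 the lowest in EBC1 among protein genes, 2.55-fold lower. The complex V genes had medians of -0.59, -1.08, -1.23 and 0.56 in the same order. The rRNAs had medians of -0.78, -0.67, -0.66 and 0.76. Complex IV genes had medians of 0.19, -0.67, -0.43 and -0.02, and in H23 all 3 lay above 0 while all 7 complex I genes lay below. In H23 and H1975, whose library depths were alike, complex I, complex V and rRNA genes had opposite signs. Over all genes, 50.1% lay below 0 in H23, 34.5% in EBC1, 48.5% in H1975 and 41.9% in H820.

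**Figure D5:**
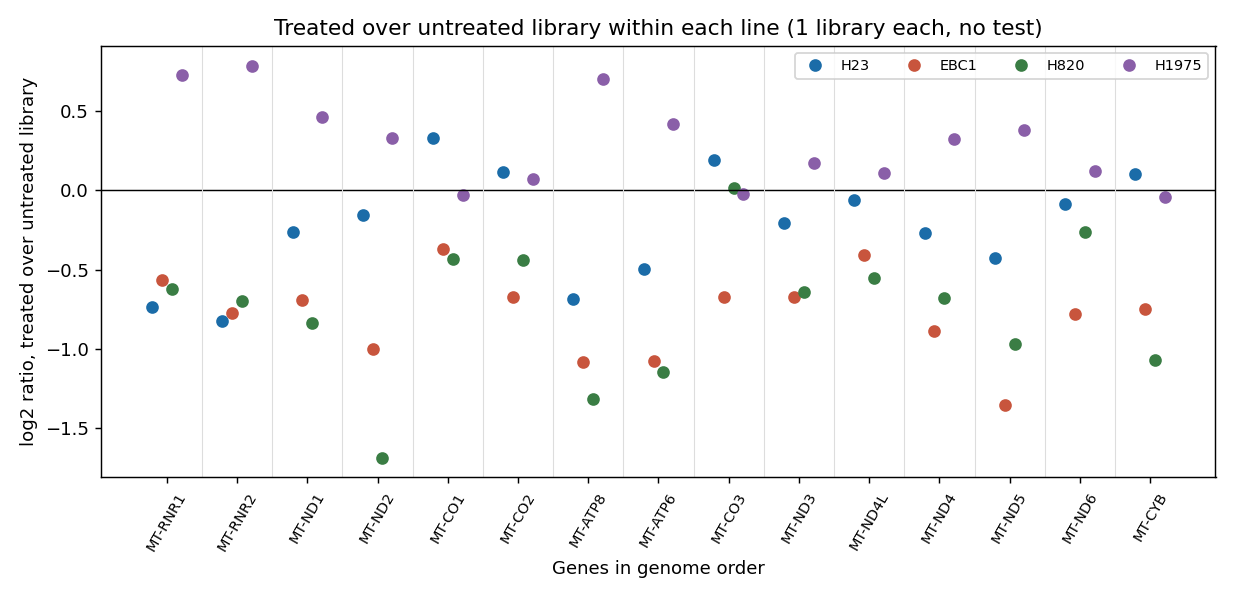
log2 ratio of the treated over the untreated library of each line (TMM-scaled CPM, prior count 5) for the 2 rRNA and 13 protein genes in genome order, 1 point per line, no test. H1975 lies above 0 for both rRNAs and 10 of the 13 protein genes, and EBC1 lies below 0 for all 15.

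The tRNA genes gave other ratios than the protein genes. Their median log2 ratios were 0.13 in H23, -0.31 in EBC1, 0.06 in H1975 and 0.24 in H820. MT-TH was the only one of the 37 genes above 0 in all 4 lines, at 0.42 in H23, 0.14 in EBC1, 0.08 in H1975 and 0.34 in H820, and 0 genes lay below 0 in all 4. MT-TP, the proline tRNA on the strand of MT-ND6, had the smallest unadjusted p of the 37 (log2 0.56 ± 0.173; edgeR, adjusted p = 0.9995), with 5.50 and 8.35 CPM in H23, 7.11 and 6.68 in EBC1, 4.89 and 9.57 in H1975 and 7.62 and 11.1 in H820. It had the higher value in the treated library of 3 lines and was the one member called higher in H23 and H1975 alone (log2 0.79 ± 0.165; edgeR, adjusted p = 0.00201). In those lines alone, 23 of all 22466 genes tested were called higher and 5 lower. MT-TI, the isoleucine tRNA after MT-ND1, had the opposite sign (log2 -0.58 ± 0.201; edgeR, adjusted p = 0.9995). Nuclear subunits of the complexes gave 0 calls in this comparison, with medians of log2 0.06 for complex I, 0.12 for complex III, 0.11 for complex IV and 0.12 for complex V. Of the 11 nuclear complex IV genes, 10 lay above 0, where the 3 mitochondrial ones lay below. In H23 and H1975 alone the nuclear medians were below 0, at -0.051 for complex I, -0.056 for complex III, -0.071 for complex IV and -0.030 for complex V. COX5A, a nuclear subunit, had the smallest unadjusted p of these lists' subunits (log2 0.26 ± 0.117; edgeR, adjusted p = 0.9995).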

How the data were processed

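RNA-seq of 8 libraries was deposited as 1 gene table per library. The values are counts of read pairs per gene that the authors made with featureCounts (Subread 2.0.0) after alignment with STAR 2.7.3a to GRCh37 (hg19) with GENCODE 28 genes, per the file headers and the submitters' processing notes. Per the file headers, counting was reverse-stranded with a mapping quality of at least 1, and a pair over several genes of 1 strand counted for each. The mitochondrial reference sequence used in alignment is not given in the sources used here. The library kit removed ribosomal RNA, per the labels' protocols. The deposited gene lengths were used for levels per kilobase.

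All 24185 genes that passed edgeR's filter (minimum count 10) were fitted together with edgeR 4.0.16 in R 4.3.3 (TMM scaling, quasi-likelihood test, line plus treatment), with Benjamini-Hochberg adjustment over all of them and calls at an adjusted p under 0.05. The line is the replicate number in the labels, so each treated library is paired with the untreated library of its line. Ratios within a line used TMM-scaled CPM with a prior count of 5. The members and lists were chosen with earlier results of these data known. All protein and rRNA genes are named. A tRNA gene is named for one of the 3 highest or 3 lowest levels per length or for passing a test. Candidates for full statistics were, per line contrast, up to 3 called members in each direction by p, with MT-ND5, MT-ATP6 and MT-ND2. Per list they were up to 3 genes by p for treatment and 2 per line contrast. Line contrast statistics are given for MT-ND5, MT-ATP6 and MT-ND2 in every line, and for only some of the other candidates. Other genes with statistics were chosen after their values were seen. Alternatives were DESeq2 1.42.0, limma-voom (limma 3.58.1), other scalings and filters, no block, H23 and H1975 alone, and each line or library left out. The procedure was tested on simulated data. Intervals cover counting error only.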

Additional observations from a re-analysis of the deposited data

Results flagged for a closer look

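In each of 76 groups of 4 libraries, the highest or lowest value was compared with the rest, and chance alone sets a library apart in about 0.05 of such groups. Among the 4 untreated libraries, H820 stood far above the other 3 for MT-CO3 (7121 CPM), MT-ATP6 (1419 CPM), MT-ATP8 (427 CPM) and MT-TN (2.71 CPM). MT-ATP6, MT-ATP8 and MT-CO3 are neighbours on the same strand, so these are not independent. Untreated EBC1 stood far above the other 3 for MT-TV (4.61 CPM) and MT-TW (38.0 CPM). MT-TV rests there on 24 counts and MT-TN in H820 on few, so counting error is large. Untreated H820 and untreated EBC1 also had the lowest library totals, at 5559870 and 5894946 counts. The part of depth in these values was not tested.

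For 7 of the 22 tRNA genes the log2 ratio of treated over untreated in EBC1, the squamous line, had the opposite sign to that in all 3 adenocarcinoma lines. The share of all genes with such a split was not computed. H1975, an adenocarcinoma line, was the only line above 0 for 9 of the 13 protein, 2 of 2 rRNA and 2 of 22 tRNA genes. The difference between EBC1 and the other lines was not tested, since EBC1 is a single line with 1 library per condition. In EBC1 the ratio was -1.47 for MT-TV, -0.44 for MT-TD, -0.33 for MT-TK, -0.045 for MT-TS2, -0.72 for MT-TE and -0.085 for MT-TP, with values above 0 in H23, H820 and H1975. It was 0.038 for MT-TS1, with values below 0 in the other lines. The ratios nearest 0 are within the counting error of such low counts.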

How the results depend on the processing

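The treatment comparison depended on the lines used: with H23 and H1975 only, 1 member was called higher and log2 changes turned above 0 for MT-ND1 (0.11), MT-ND2 (0.092), MT-CO1 (0.15), MT-CO2 (0.10), MT-ATP8 (0.022), MT-CO3 (0.087), MT-ND4L (0.029), MT-ND4 (0.032), MT-ND6 (0.023), MT-CYB (0.034), MT-RNR1 (0.0052) and MT-TI (0.042). MT-CO3 was between -0.25 and 0.033 when single lines were left out, the highest without EBC1. With no filter, 2 members were called lower (MT-ND2 and MT-ATP8), as were 2 without H1975. Without the replicate block, that is without pairing by line, 0 members were called in either direction and 0 had an unadjusted p under 0.05; the block changed no call. In H23, where MT-ND2 and MT-ND5 were also called higher with library size only, members called higher numbered 6 with library size only, 2 with no filter and 0 with DESeq2, and 0 to 3 when single libraries were left out. In EBC1, 4 to 16 members were called lower and in H820 19 to 32 higher when single libraries were left out, the lowest both times without treated EBC1. In H1975, 7 were called higher at a minimum count of 50, which tests fewer members, and 5 to 19 when single libraries were left out (19 without untreated H820, 7 without treated EBC1, 5 without treated H1975). In H1975, 8 were called lower with no filter, 3 with DESeq2 and 4 to 9 when single libraries were left out (9 without untreated H820). With library size only, MT-ATP6 turned to 0.11 in H23 and MT-ND6 to -0.23 in EBC1, and the nuclear medians in EBC1 to -0.22 for complex I and -0.18 for complex V. MT-ND6 in EBC1 was at -0.21 without untreated EBC1, and MT-ND2 in H820 at -0.18 without untreated H820. In H1975, without its treated library, MT-ND5 was at -0.62, MT-ATP6 at -0.29 and MT-ND2 at -0.045, and MT-ND5 was at -0.10 without treated EBC1 and -0.0143 without treated H820. The nuclear median of complex III in H820, near 0, was 0.0097 with relative log expression factors, 0.0098 with DESeq2, 0.035 without untreated H820 and 0.036 without untreated H1975. The share of counts of the 37 genes, treated over untreated, was 1.03 for H23, 0.589 for EBC1, 0.608 for H820 and 1.10 for H1975. In this order it was 1.03, 0.588, 0.594 and 1.07 with protein-coding genes as denominator, 1.05, 0.593, 0.612 and 1.07 without the rRNA genes, and 1.05, 0.592, 0.610 and 1.07 for protein genes only, in the same order of lines. Median within-line ratios with library size only were -0.0946 in H23, -0.87 in EBC1 and -0.91 in H820. The share of all genes called also differed between these settings, as did the number of genes tested in several of them. The causes were not tested. Low counts limit MT-TS1, MT-TV and MT-TN most, and 1 library per line and condition limits every treatment value.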
